A study of Mus musculus with 16 samples.

Results

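Skin that had met PMA alone was set against skin that had met a high-fat diet alone, to find which genes separate a short chemical irritation from weeks of diet. The 4 libraries titled ND_PMA came from ear skin of B6 mice on a normal diet (ND) whose ears were taken 24 h after 200 ng of phorbol 12-myristate 13-acetate (PMA) per ear. The 4 libraries titled HFD_cont came from ear skin of B6 mice kept for 8 weeks on a high-fat diet (HFD) and labelled as untreated. These 8 of 16 libraries were chosen by their titles, and all 17604 genes with enough counts, of 48440 listed, were compared. Values from HFD_PMA (4 libraries, high-fat diet and PMA) and from untreated normal-diet skin, ND_cont (4 libraries), stand beside them where they place a gene. The 2 groups differ in diet and in PMA, so the difference between them alone does not say which side moved. Ear skin mixes epidermis, dermis, fat, cartilage and muscle, and the labels do not say whether ears without PMA had been given its solvent.

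PMA is a plant-derived phorbol ester that stands in for diacylglycerol and switches on protein kinase C. In mouse skin it provokes cytokine release, an influx of neutrophils and monocytes, and keratinocyte proliferation with epidermal thickening. It also drives the transcription factor AP-1, whose binding sequence was first described as a phorbol ester response element. A high-fat diet leads to obesity in B6 mice, with altered lipid supply to the skin and a slow, low-grade inflammation of fat tissue.

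Totals of the 8 libraries lay between 7989172 and 15571389 counts. Pearson correlations of log2 CPM (counts scaled to library size) within the groups ran from 0.954 to 0.977, and no pair of replicates agreed within sampling noise (chi-square per degree of freedom at least 10.1). The library IDs fall into 2 series: HFD_cont replicate 1 and the ND_cont libraries begin with RHS and the other 11 with RHP. What the prefix stands for is not given, so counts within the RHP libraries alone (4 ND_PMA against HFD_cont replicates 2 to 4) stand beside the results. Keratinocyte markers summed to between 21166 and 24160 CPM in ND_PMA and between 22768 and 25980 CPM in HFD_cont, the highest sums of the marker lists. Muscle and cartilage genes, which belong to the ear, were present in every library. Growing hair genes set libraries of HFD_cont apart: the 14 members summed to between 10.4 and 138 CPM in ND_PMA, against 2532, 1785, 86.7 and 659 CPM in HFD_cont replicates 1 to 4. Counts with HFD_cont replicates 1 and 2 left out, a setting chosen after the data were seen, are therefore given as well.

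At an adjusted p below 0.05 (edgeR's quasi-likelihood test, Benjamini-Hochberg over all genes), 1720 genes differed, which is 9.77% of those tested. Of these, 1147 (6.52%) were higher and 573 (3.25%) lower in ND_PMA than in HFD_cont. More than 2-fold apart were 459 of the higher and 181 of the lower genes, and more than 4-fold apart were 119 and 73. The median log2 fold change of all genes was 0.02. The 4 values of one group lay wholly above those of the other in 2872 genes (16.3%), and in 1543 (89.7%) of the called ones. In the RHP libraries alone 1428 genes were called (1008 higher, 420 lower). The count fell to 1123 without HFD_cont replicate 4 and to 943 (615 higher, 328 lower) without HFD_cont replicates 1 and 2. Of the calls, 66.7% were higher in ND_PMA, against 57.6% with RLE scaling (966 higher, 711 lower) and 57.1% with upper-quartile scaling (969 higher, 728 lower). DESeq2, which also differs in its test, called 1267 genes higher and 1003 lower (55.8% higher).

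**Figure D1:**
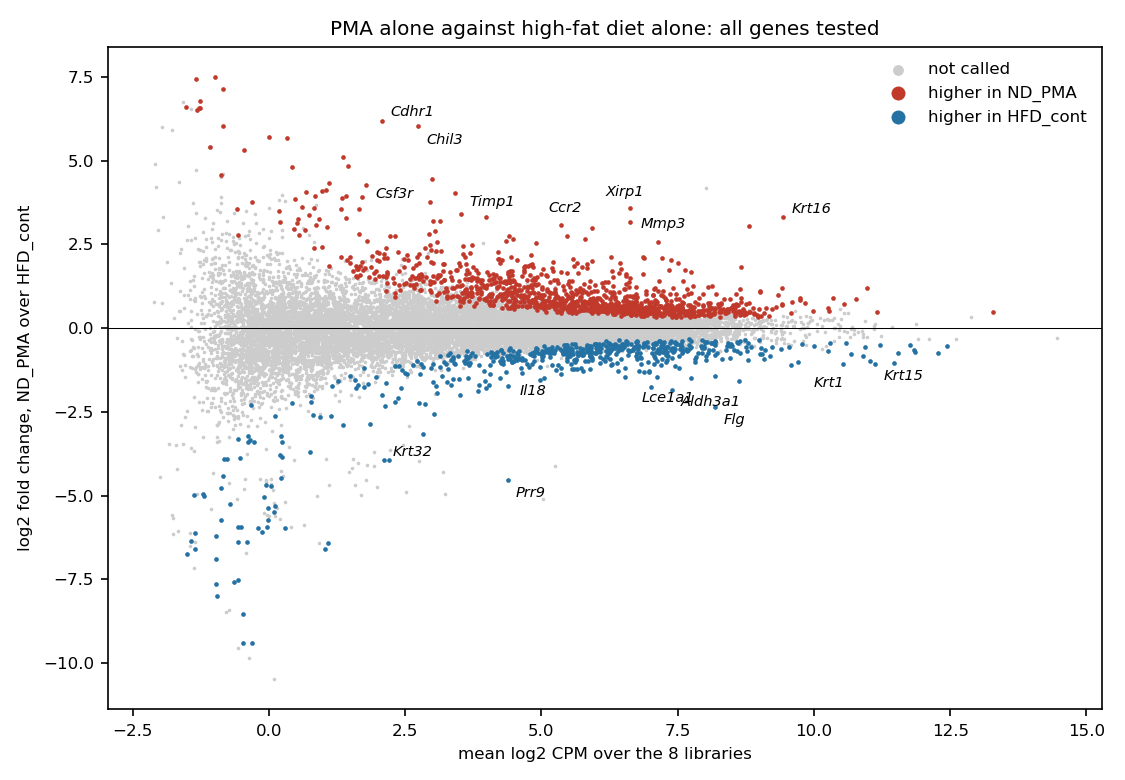
Every point is 1 of the 17604 genes tested, with its mean log2 CPM over the 8 libraries on the x axis and the log2 fold change of ND_PMA over HFD_cont on the y axis. Coloured points passed the adjusted p: 1147 genes higher in ND_PMA, among them Krt16 and Xirp1 at high expression, and 573 higher in HFD_cont, among them Flg and Krt15.

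Against untreated normal-diet skin, the fit called 2279 genes (12.9%) in ND_PMA, 1577 higher (8.96%) and 702 lower (3.99%), and 691 genes (3.93%) in HFD_cont, 505 higher (2.87%) and 186 lower (1.06%). Both comparisons share the ND_cont libraries, so for each gene only its own 2 log2 fold changes are given side by side. ND_cont is wholly of the RHS series, and with the library ID series as a covariate the counts were 453 in ND_PMA and 179 in HFD_cont. Values against ND_cont therefore place a gene and cannot be told apart from the series. Only HFD_cont holds both series, so the covariate is set by its replicate 1 against the rest of that group. This library also had the highest growing hair sum of HFD_cont, so the drop in calls cannot be read as an effect of the series. Unless another comparison is named, fold changes and calls below are ND_PMA over HFD_cont.

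The genes furthest apart were of mixed kinds. Cdhr1, which encodes a cadherin-related protein known from photoreceptors (chromosome 14, 37077857 to 37098347, GRCm38), stood at 30.03, 36.5, 41.6 and 30.5 CPM in ND_PMA replicates 1 to 4, against 1.11, 0, 0.0726 and 0.977 CPM in HFD_cont replicates 1 to 4. It was near 0 in untreated skin of either diet and at 30.8, 31.3, 26.9 and 29.5 CPM in HFD_PMA. Its log2 fold change was 6.19 ± 0.69 SE, edgeR adjusted p = 1.18e-05. For Car4, a membrane-bound carbonic anhydrase, the 8 values were 10.5, 22.3, 21.02 and 5.34 CPM in ND_PMA, against 0.247, 1.005, 0.145 and 0.217 CPM in HFD_cont (log2 fold change 5.10 ± 0.71 SE, edgeR adjusted p = 0.00012). Among the 15 largest increases were 2 genes known from striated muscle: Xirp1, which encodes an actin-binding repeat protein, and Ankrd1, which encodes a stress-responsive ankyrin repeat protein. Xirp1 had 343, 582, 201 and 339 CPM in ND_PMA, against 18.4, 50.5, 24.99 and 28.5 CPM in HFD_cont (log2 fold change 3.57 ± 0.56 SE, edgeR adjusted p = 0.00116), and Ankrd1 averaged 54.3 ± 7.81 CPM in ND_PMA and 5.3 ± 3.75 CPM in HFD_cont (log2 fold change 3.33 ± 0.46 SE, edgeR adjusted p = 0.00012). Of the 11 skeletal muscle markers none was higher and 1 was lower, their median was -0.08 and their summed level ran from 4715 to 10784 CPM in ND_PMA, against 3839 to 8962 CPM in HFD_cont. The lower count was 2 in the RHP libraries, 2 without HFD_cont replicate 1, 3 without ND_PMA replicate 2 and 0 without HFD_cont replicate 2, 3 or 4 or ND_PMA replicate 3 or 4, and the median ran from -0.42 to 0.01 with single libraries left out. The other large increases with less known roles in skin included Sh2d5, Sirpb1c and Cd300lf. In all genes for which the 8 values are printed the groups did not overlap, which for the 30 largest differences was a condition of being named. The others were picked from called genes, of which 89.7% did not overlap.

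Called markers of neutrophils, monocytes and macrophages were all higher after PMA than on the diet. Of 10 measured neutrophil markers 6 were higher and none lower (median log2 fold change 2.97), and 6 in the RHP libraries alone. Csf3r, the receptor of the neutrophil growth factor G-CSF, stood at 22.1, 61.6, 26.9 and 22.8 CPM in ND_PMA, against 3.95, 3.01, 2.62 and 0.217 CPM in HFD_cont. Replicate 2 of ND_PMA was far above its group, and all 4 exceeded the diet group (log2 fold change 3.76 ± 0.60 SE, edgeR adjusted p = 0.000555). Cd177, a neutrophil surface glycoprotein, had 10.04, 11.7, 14.6 and 5.34 CPM in ND_PMA, against 1.11, 0, 0.944 and 0 CPM in HFD_cont (log2 fold change 4.34 ± 0.77 SE, edgeR adjusted p = 0.000925). The whole list summed to between 265 and 484 CPM in ND_PMA and between 210.4 and 235 CPM in HFD_cont, while the defining marker Ly6g had 0 counts in all 8 libraries. Without HFD_cont replicate 2, HFD_cont replicate 3 or ND_PMA replicate 2 the list had 4 calls. In whole tissue, fewer cells of a type and less RNA per cell cannot be told apart.

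Monocyte and macrophage markers showed 7 of 15 members higher and none lower (median 0.67), with 7 in the RHP libraries alone. Ccr2, the chemokine receptor that brings monocytes out of blood, gave the clearest separation, at 141, 97.4, 159 and 87.9 CPM in ND_PMA, against 13.6, 16.4, 13.8 and 13.5 CPM in HFD_cont. The diet group was tight and every ND_PMA library lay far above it (log2 fold change 3.08 ± 0.25 SE, edgeR adjusted p = 2.68e-07). Mrc1, the mannose receptor of tissue macrophages, had 174, 174, 193 and 129 CPM in ND_PMA, against 51.8, 74.9, 42.9 and 48.7 CPM in HFD_cont (log2 fold change 1.62 ± 0.21 SE, edgeR adjusted p = 5.85e-05). The haemoglobin scavenger receptor Cd163 had a log2 fold change of 1.36 ± 0.20 SE, edgeR adjusted p = 0.000214, and the dendritic cell lectin Cd209a, the 1 called member of 14 Langerhans and dendritic cell genes, one of 1.80 ± 0.25 SE, edgeR adjusted p = 0.000121. Of 10 T and NK cell genes 1 was higher, and none of 2 measured B cell, 8 mast cell, 5 melanocyte, 5 endothelial and 7 cartilage genes was called in either direction. The 1 call each among dendritic and among T and NK cell genes stands beside 6.52% called higher over all genes tested. Without HFD_cont replicate 1 or ND_PMA replicate 4 a mast cell gene was called, without HFD_cont replicate 2 a melanocyte gene, and without ND_PMA replicate 4 2 endothelial genes.

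Chemokines and type 2 immune genes gave the highest shares among signalling lists. Of 12 measured chemokines that act on monocytes and lymphocytes, 7 were higher and 1 lower (median 1.15; 7 and 1 in the RHP libraries). Ccl7, a monocyte attractant, had 31.4, 40.8, 17.4 and 8.53 CPM in ND_PMA, against 2.47, 3.86, 4.87 and 1.85 CPM in HFD_cont (log2 fold change 2.89 ± 0.41 SE, edgeR adjusted p = 0.000138). Ccl9 and Ccl6, chemokines of myeloid cells, averaged 72.8 ± 22.3 CPM in ND_PMA and 12.5 ± 1.16 CPM in HFD_cont and 123 ± 28.4 CPM in ND_PMA and 30.9 ± 5.34 CPM in HFD_cont. Each lay above the whole diet group in all ND_PMA libraries. The neutrophil attractant Cxcl5 had 12.3, 37.1, 6.43 and 6.27 CPM in ND_PMA, against 0.124, 0.696, 0.654 and 0.543 CPM in HFD_cont (log2 fold change 4.85 ± 0.94 SE, edgeR adjusted p = 0.00275), and was the 1 called gene of 9 neutrophil chemokines and growth factors, of which 3 were called in the RHP libraries alone.

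Of 11 type 2 immunity and alternative activation genes 7 were higher and none lower (median 1.56; 6 in the RHP libraries). Chil3, the chitinase-like protein Ym1 of alternatively activated macrophages and neutrophils (chromosome 3, 106147554 to 106167564, GRCm38), stood at 76.3, 53.1, 82.7 and 39.7 CPM in ND_PMA, against 2.84, 0.155, 0 and 1.41 CPM in HFD_cont (log2 fold change 6.05 ± 0.80 SE, edgeR adjusted p = 0.00024). The diet group was at or near 0. Tslp, the keratinocyte cytokine that starts type 2 responses, had 32.8, 21.5, 27.2 and 32.7 CPM in ND_PMA, against 2.47, 3.86, 6.54 and 7.93 CPM in HFD_cont (log2 fold change 2.45 ± 0.37 SE, edgeR adjusted p = 0.000295). In HFD_PMA it stood at 7.99, 12.6, 5.56 and 15.9 CPM. Ccl22, a chemokine for type 2 T cells, had a log2 fold change of 2.48 ± 0.29 SE, edgeR adjusted p = 1.97e-05, and the IL-4 receptor chain Il4ra one of 1.96 ± 0.31 SE, edgeR adjusted p = 0.000532.

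**Figure D2:**
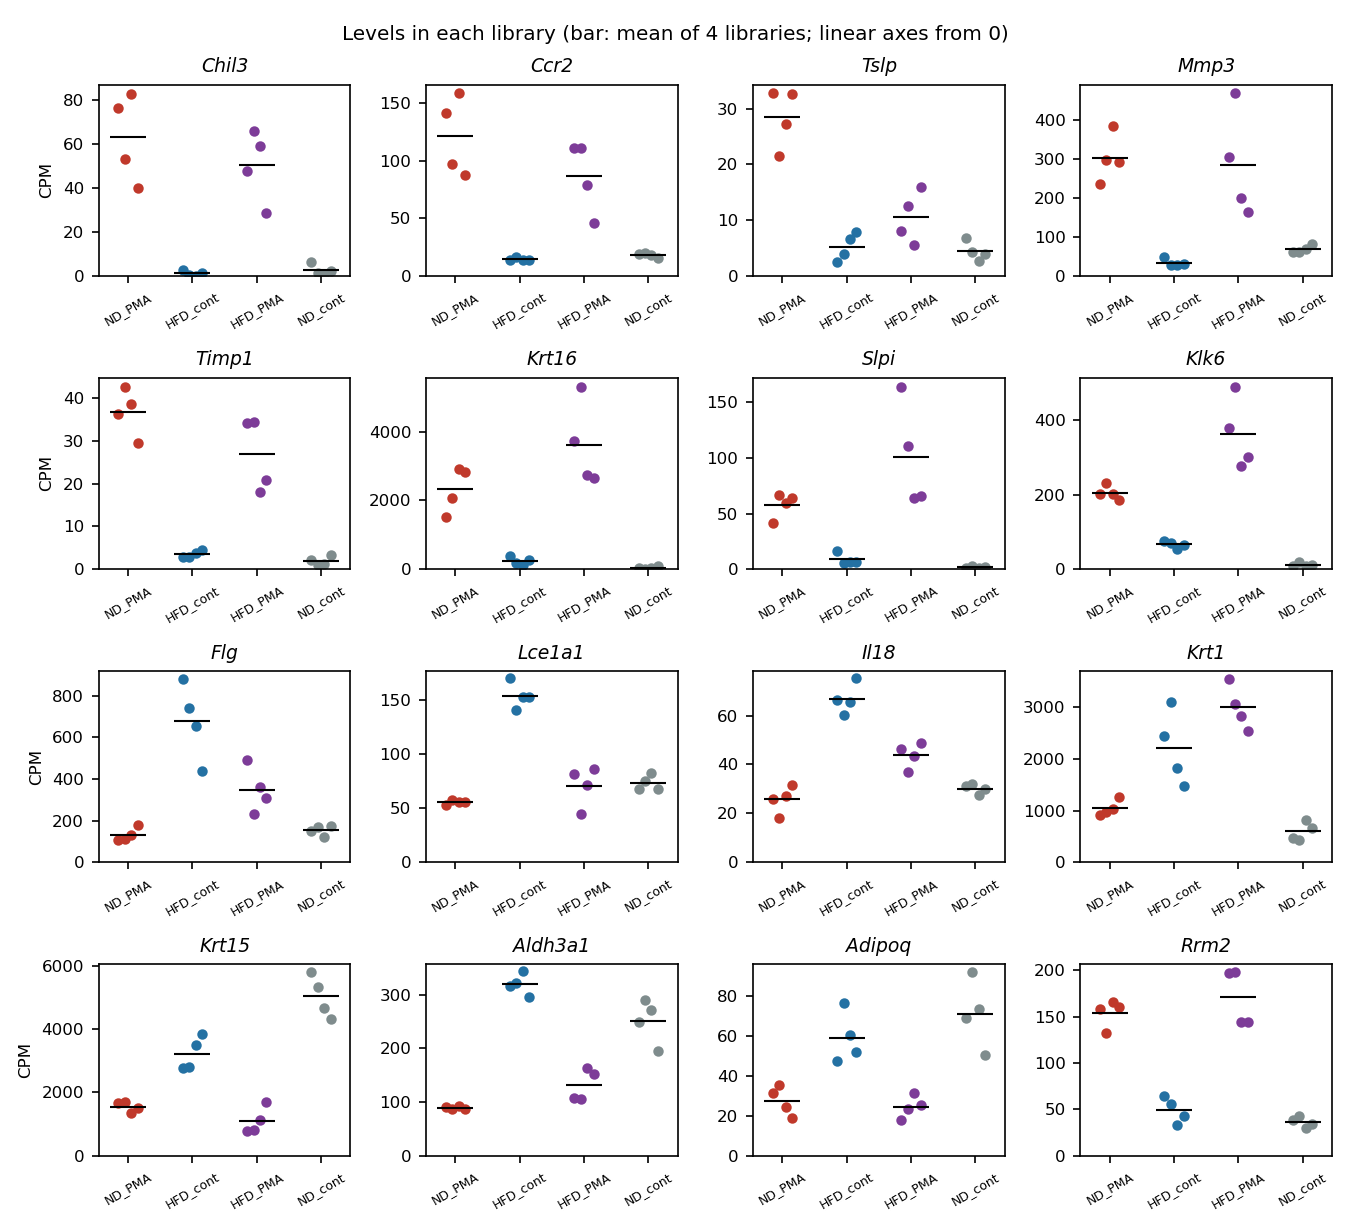
Each panel shows the CPM of 1 gene in the 4 libraries of ND_PMA, HFD_cont, HFD_PMA and ND_cont, with the group mean as a bar and linear axes from 0. Ccr2, Chil3, Mmp3 and Krt16 are high in ND_PMA and low in HFD_cont, while Flg, Il18 and Krt1 are highest or near highest in the high-fat diet groups and Krt15 is highest in ND_cont.

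The interleukin-1 family divided. Of 15 genes 3 were higher and 3 lower (median 0.21; 3 and 2 in the RHP libraries). On the higher side Il1rl1, the IL-33 receptor, had 17.4, 9.2, 11.99 and 6.58 CPM in ND_PMA, against 2.35, 2.55, 2.54 and 3.37 CPM in HFD_cont (log2 fold change 2.06 ± 0.39 SE, edgeR adjusted p = 0.00187). On the lower side Il18, a cytokine stored by keratinocytes (chromosome 9, 50554827 to 50581840, GRCm38), had 26.04, 17.9, 27.2 and 31.6 CPM in ND_PMA, against 66.2, 60.05, 65.5 and 75.4 CPM in HFD_cont (log2 fold change -1.38 ± 0.16 SE, edgeR adjusted p = 1.86e-05). Over ND_cont, the log2 fold change of Il18 was -0.23 in ND_PMA and 1.15 in HFD_cont. Il1a, the alarmin IL-1 alpha, had 28.8, 19.2, 31.6 and 30.4 CPM in ND_PMA, against 40.4, 36.9, 45.5 and 44.9 CPM in HFD_cont (log2 fold change -0.61 ± 0.17 SE, edgeR adjusted p = 0.0228), but its adjusted p was 0.056 in the RHP libraries alone. Without HFD_cont replicate 3 the list had 1 call on the higher side.

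Among 15 other cytokines and gp130 receptors 6 were higher and none lower (median 0.77; 6 in the RHP libraries). Stat3, the transcription factor downstream of gp130, averaged 557 ± 85.6 CPM in ND_PMA and 301 ± 18.2 CPM in HFD_cont (log2 fold change 0.89 ± 0.12 SE, edgeR adjusted p = 0.000107). Its feedback inhibitor Socs3 had 64.03, 144, 68.6 and 56.7 CPM in ND_PMA, against 27.3, 48.5, 34.7 and 33.1 CPM in HFD_cont (log2 fold change 1.21 ± 0.29 SE, edgeR adjusted p = 0.00876). ND_PMA replicate 2 lay far above the rest of its group, and without it the log2 fold change of Socs3 was 0.76 with an adjusted p of 0.0596, and the list had 3 calls. Of 15 pattern recognition genes 4 were higher, among them the fungal glucan receptor Clec7a (log2 fold change 2.40 ± 0.45 SE, edgeR adjusted p = 0.00151). Of 12 complement genes 4 were higher, including properdin, Cfp (113 ± 41.4 CPM in ND_PMA and 29.95 ± 4.23 CPM in HFD_cont), and the C3a receptor C3ar1 (50.3 ± 9.28 CPM in ND_PMA and 13.7 ± 4.16 CPM in HFD_cont), and 2 were called without ND_PMA replicate 2.

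Of the signalling genes nearest to PMA itself, none of 9 protein kinase C genes was called (median -0.02). Of 14 AP-1 and immediate early genes, 2 were higher and 2 lower (median -0.34), but none was higher without HFD_cont replicate 4 and none lower without HFD_cont replicate 3 or ND_PMA replicate 1, 3 or 4. Junb, an AP-1 subunit, had 319, 440.2, 323 and 300.3 CPM in ND_PMA, against 187, 247, 262 and 212 CPM in HFD_cont (log2 fold change 0.60 ± 0.14 SE, edgeR adjusted p = 0.00679), and missed the threshold without HFD_cont replicate 1 or 4 (adjusted p at most 0.0512). Of 12 NF-kB feedback genes 1 was higher and 1 lower, against 6.52% higher and 3.25% lower over all genes tested. The co-activator Bcl3 was higher (19.7 ± 3.67 CPM in ND_PMA and 8.66 ± 1.34 CPM in HFD_cont) and the inhibitor Nfkbia lower (116 ± 23.8 CPM in ND_PMA and 223 ± 46.5 CPM in HFD_cont). Of 10 EGF receptor ligands and receptors 1 was higher and 1 lower, beside the same shares over all genes. Epgn was the higher one and Ereg, which encodes epiregulin, the lower one (35.8 ± 10.4 CPM in ND_PMA and 81.96 ± 19.4 CPM in HFD_cont). Epgn was not called in the RHP libraries alone, nor without HFD_cont replicate 1, 3 or 4 or ND_PMA replicate 2 or 4.

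Called genes of matrix degradation and matrix lay almost wholly on the PMA side, but most members of both lists were not called. Of 19 genes of extracellular proteolysis 8 were higher and none lower (median 0.93; 8 in the RHP libraries). Timp1, the inhibitor of metalloproteinases, had 36.2, 42.6, 38.6 and 29.5 CPM in ND_PMA, against 2.72, 2.86, 3.85 and 4.45 CPM in HFD_cont (log2 fold change 3.40 ± 0.32 SE, edgeR adjusted p = 2.41e-06). Mmp3, or stromelysin, a metalloproteinase with broad substrates, had 236, 299, 385 and 293 CPM in ND_PMA, against 48.6, 26.8, 28.9 and 30.7 CPM in HFD_cont (log2 fold change 3.17 ± 0.27 SE, edgeR adjusted p = 9.16e-07). Over ND_cont, the log2 fold change of Mmp3 was 2.14 in ND_PMA and -1.03 in HFD_cont, with adjusted p of 1.37e-05 and 0.0289 in edgeR. Mmp19, a further metalloproteinase, had a log2 fold change of 1.93 ± 0.37 SE, edgeR adjusted p = 0.00188. The list count depended on single libraries and was 3 to 5 without HFD_cont replicate 2, 3 or 4 or ND_PMA replicate 2 or 3.

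Some named genes hold an exact phorbol ester response element, the textbook AP-1 site, in their promoter, and 2 of them are shown, 1 from each direction. The windows run from 250 bases before to 50 after the RefSeq start on GRCm38.p6, Mmp3 at chr9:7445572-7445871 on the plus strand and Il1a at chr2:129309923-129310222 on the minus strand. They are written 5′ to 3′ on the gene's strand, with the element in capitals, TGAGTCA or, read from the other strand, TGACTCA.
Mmp3: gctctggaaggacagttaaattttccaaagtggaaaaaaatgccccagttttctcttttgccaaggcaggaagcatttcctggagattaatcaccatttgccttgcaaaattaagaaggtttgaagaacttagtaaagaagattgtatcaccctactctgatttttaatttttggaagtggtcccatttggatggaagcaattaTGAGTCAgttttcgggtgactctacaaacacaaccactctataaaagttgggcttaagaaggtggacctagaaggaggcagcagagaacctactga
Il1a: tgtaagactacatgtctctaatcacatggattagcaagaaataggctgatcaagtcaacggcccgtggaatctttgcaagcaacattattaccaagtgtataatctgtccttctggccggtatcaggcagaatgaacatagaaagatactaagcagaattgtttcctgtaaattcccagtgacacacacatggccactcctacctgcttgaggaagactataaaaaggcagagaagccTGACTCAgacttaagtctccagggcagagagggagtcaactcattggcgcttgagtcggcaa
The element begins 46 bases before the start in Mmp3, which was higher in ND_PMA, and 12 bases before it in Il1a, which was lower. On either strand it was present in 48 of 886 called-higher genes with a window (5.42%), in 33 of 414 called-lower genes (7.97%) and in 611 of 11688 of all genes tested (5.23%). Of the 15 largest increases 11 had a window and 0 of them held it, and of the 15 largest decreases 14 had a window and 2 of them held it. These are matches of letters and do not show binding.

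Of 23 fibroblast matrix genes 9 were higher and 1 lower (median 0.47; 8 and 0 in the RHP libraries). Tnc, the tenascin of wound stroma, had 185, 332, 314 and 168 CPM in ND_PMA, against 72.03, 56.1, 52.01 and 47.8 CPM in HFD_cont (log2 fold change 2.13 ± 0.24 SE, edgeR adjusted p = 1.19e-05). The collagen VI chain Col6a2 averaged 253 ± 53.6 CPM in ND_PMA and 138 ± 15.2 CPM in HFD_cont (log2 fold change 0.87 ± 0.14 SE, edgeR adjusted p = 0.000486) and the collagen cross-linking enzyme Lox 119.8 ± 21.7 CPM in ND_PMA and 68.6 ± 8.55 CPM in HFD_cont (log2 fold change 0.80 ± 0.15 SE, edgeR adjusted p = 0.00162). For these 2 the diet side lay below ND_cont: the log2 fold changes over ND_cont were 0.24 in ND_PMA and -0.63 in HFD_cont for Col6a2, and 0.14 in ND_PMA and -0.67 in HFD_cont for Lox. Over the list, 1 gene was higher and 4 lower in ND_PMA than in ND_cont, and 0 were higher and 11 lower in HFD_cont than in ND_cont. Without HFD_cont replicate 4, 6 matrix genes were called higher in ND_PMA.

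The epidermal genes separated the groups in both directions. Wound-associated keratinocyte genes, which are switched on in healing or hyperproliferative epidermis, were higher in 9 of 20 cases and lower in none (median 1.49; 12 in the RHP libraries). Krt16, a keratin of activated suprabasal cells (chromosome 11, 100246091 to 100248902, GRCm38), stood at 1528, 2057, 2905 and 2837 CPM in ND_PMA, against 375, 188, 107 and 271 CPM in HFD_cont (log2 fold change 3.31 ± 0.62 SE, edgeR adjusted p = 0.0042). Both groups exceeded ND_cont, where it had 17.6, 13.4, 26.3 and 102 CPM. Its partner Krt6a had 890.1, 1586, 1504 and 1485 CPM in ND_PMA, against 223, 129, 78.9 and 235 CPM in HFD_cont (log2 fold change 3.04 ± 0.57 SE, edgeR adjusted p = 0.0042). Slpi, a secreted inhibitor of leukocyte proteases, had 41.3, 66.4, 59.5 and 63.5 CPM in ND_PMA, against 16.6, 5.02, 6.68 and 6.41 CPM in HFD_cont (log2 fold change 2.76 ± 0.36 SE, edgeR adjusted p = 5.71e-05), and its log2 fold changes over ND_cont were 5.18 in ND_PMA and 2.42 in HFD_cont. In the list as a whole 19 of 20 genes were higher in ND_PMA than in ND_cont, and 12 of 20 in HFD_cont than in ND_cont.

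Klk6, an epidermal kallikrein protease, followed the same order, with 200.5, 231, 202 and 185 CPM in ND_PMA, against 75, 69.8, 55.1 and 64.8 CPM in HFD_cont (log2 fold change 1.63 ± 0.20 SE, edgeR adjusted p = 3.75e-05) and 7.28, 17.6, 9.04 and 10.4 CPM in ND_cont. Of 13 kallikrein and desquamation genes 3 were higher and 1 lower (median -0.12), and 1 was higher without HFD_cont replicate 3 or ND_PMA replicate 2. The cornified envelope precursor Sprr2a3 had 42.5, 52.7, 44.2 and 38.7 CPM in ND_PMA, against 6.92, 0.618, 0.508 and 0.869 CPM in HFD_cont (log2 fold change 4.45 ± 0.74 SE, edgeR adjusted p = 0.00111). HFD_cont replicate 1 lay far above the rest of its group for this gene, which belongs to a family of near-identical copies. Stfa1, a cysteine protease inhibitor, averaged 9.05 ± 3.56 CPM in ND_PMA and 0.989 ± 1.24 CPM in HFD_cont.

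Called genes of the cornified envelope and terminal differentiation list went the other way. The envelope precursors Sprr1b, Sprr2e, Sprr2f and Sprr2h stood in the wound-associated list instead and were called higher. Of 26 cornified envelope genes 12 were lower and none higher (median -0.54; 10 lower and 1 higher in the RHP libraries). Flg, encoding filaggrin, the keratin-bundling protein of the stratum corneum (chromosome 3, 93273523 to 93293686, GRCm38), had 108, 111, 132 and 180.4 CPM in ND_PMA, against 881, 742, 654 and 439 CPM in HFD_cont (log2 fold change -2.35 ± 0.23 SE, edgeR adjusted p = 2.57e-06). The diet group stood apart here: the log2 fold change over ND_cont was -0.22 in ND_PMA and 2.13 in HFD_cont. Lce1a1, a late cornified envelope protein, had 52.8, 57.8, 56.1 and 55.3 CPM in ND_PMA, against 171, 140.4, 153 and 153 CPM in HFD_cont (log2 fold change -1.47 ± 0.16 SE, edgeR adjusted p = 6.29e-06), and its relatives Lce1a2 and Lce1c averaged 84.96 ± 12.03 CPM in ND_PMA and 231 ± 35.4 CPM in HFD_cont and 75.5 ± 9.04 CPM in ND_PMA and 186 ± 28.2 CPM in HFD_cont. The suprabasal keratin Krt10 averaged 3849 ± 446 CPM in ND_PMA and 6416 ± 564 CPM in HFD_cont (log2 fold change -0.74 ± 0.13 SE, edgeR adjusted p = 0.000938). Krt1, its partner, had 921, 964, 1024 and 1269.6 CPM in ND_PMA, against 2439, 3094, 1823 and 1481 CPM in HFD_cont (log2 fold change -1.08 ± 0.21 SE, edgeR adjusted p = 0.00195), but its log2 fold change over ND_cont was 0.81 in ND_PMA and 1.89 in HFD_cont, called in both. Against ND_cont, 6 genes of the list were higher and 2 lower in ND_PMA, and 13 higher and 0 lower in HFD_cont.

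Krt15, a keratin of basal and hair follicle stem cells, had 1675, 1686, 1334 and 1509.6 CPM in ND_PMA, against 2764, 2804, 3505 and 3844 CPM in HFD_cont (log2 fold change -1.06 ± 0.19 SE, edgeR adjusted p = 0.00111). Over ND_cont its log2 fold change was -1.70 in ND_PMA and -0.64 in HFD_cont, where it missed the threshold (edgeR adjusted p = 0.0623). Krt79, a keratin of the upper hair follicle and sebaceous duct, averaged 594 ± 158 CPM in ND_PMA and 1198 ± 94.3 CPM in HFD_cont (log2 fold change -1.01 ± 0.18 SE, edgeR adjusted p = 0.000904) and had a log2 fold change over ND_cont of 0.03 in ND_PMA and 1.04 in HFD_cont. Of 16 basal adhesion genes 5 were higher and 1 lower (median 0.16), with 2 and 1 in the RHP libraries 1 higher without any 1 of the HFD_cont replicates and 2 or 3 higher without ND_PMA replicate 1, 2 or 3. Of 22 ceramide and barrier lipid genes 2 were lower, including the ceramidase Acer1 (306 ± 29.5 CPM in ND_PMA and 492 ± 19.7 CPM in HFD_cont). That count was 1 in the RHP libraries and without HFD_cont replicates 1 and 2 or ND_PMA replicate 1, and 3 without HFD_cont replicate 1 or ND_PMA replicate 2.

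**Figure D3:**
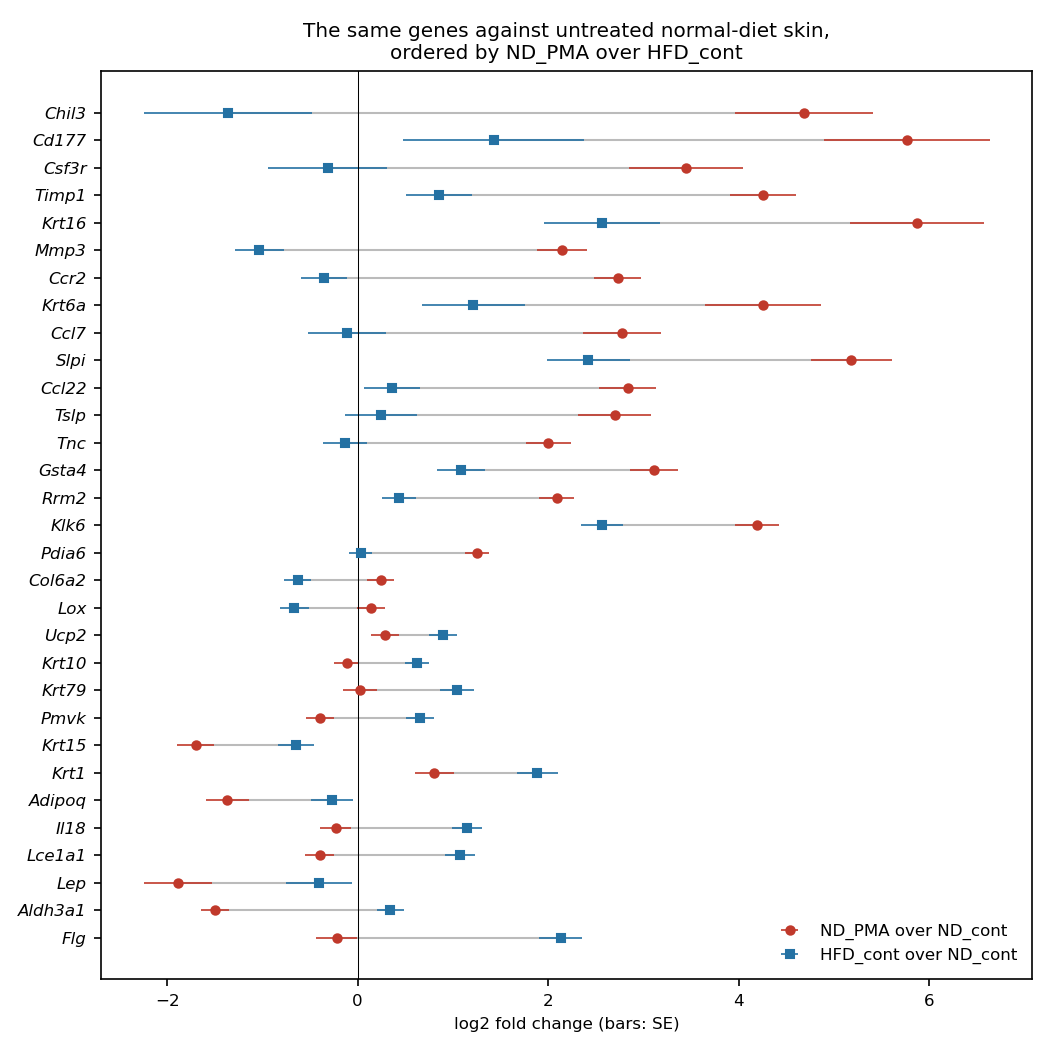
Each row is 1 gene, ordered by its log2 fold change of ND_PMA over HFD_cont, with its log2 fold change over ND_cont in ND_PMA (red circles) and in HFD_cont (blue squares) and bars for the SE. Flg, Il18, Lce1a1 and Krt79 lie near 0 in ND_PMA and above 0 in HFD_cont, Ccr2, Tslp and Pdia6 the reverse, and Krt16, Slpi and Klk6 lie above 0 in both.

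DNA replication genes gave a larger share of calls than the other lists described here. Of 20 DNA replication genes 15 were higher and none lower (median 1.10), and the count was 15 in the RHP libraries and with any single library left out. Rrm2, the ribonucleotide reductase subunit that limits DNA synthesis, had 158, 132, 166 and 160.2 CPM in ND_PMA, against 64.7, 55.3, 33.3 and 42.7 CPM in HFD_cont (log2 fold change 1.66 ± 0.18 SE, edgeR adjusted p = 7.81e-06). The helicase genes Mcm2 and Mcm3 averaged 162 ± 23.6 CPM in ND_PMA and 54.95 ± 10.4 CPM in HFD_cont and 167 ± 12.01 CPM in ND_PMA and 59.8 ± 13.4 CPM in HFD_cont, and Ccne1, which encodes the S phase cyclin E1, 25.3 ± 2.82 CPM in ND_PMA and 5.76 ± 1.9 CPM in HFD_cont. Of 20 mitosis genes 10 were higher and none lower (median 0.97; 13 in the RHP libraries). Top2a, the topoisomerase of dividing cells, had 135, 74.7, 111 and 130.2 CPM in ND_PMA, against 61.8, 42.1, 36.03 and 38.99 CPM in HFD_cont (log2 fold change 1.33 ± 0.22 SE, edgeR adjusted p = 0.000439). The mitotic kinase Aurkb averaged 54.7 ± 6.23 CPM in ND_PMA and 18.9 ± 8.69 CPM in HFD_cont. Over ND_cont, 19 of 20 genes of either list were higher in ND_PMA, and 1 replication gene and 2 mitosis genes in HFD_cont.

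Called glycolysis, chaperone and ribosome biogenesis genes were all higher in ND_PMA. Of 21 glycolysis genes 9 were higher and none lower (median 0.53; 8 in the RHP libraries), including hexokinase 2, Hk2 (165 ± 42.1 CPM in ND_PMA and 70.8 ± 1.47 CPM in HFD_cont), pyruvate kinase, Pkm (2366 ± 271 CPM in ND_PMA and 1288 ± 59.3 CPM in HFD_cont), and the glucose transporter Slc2a1 (157 ± 13.4 CPM in ND_PMA and 90.6 ± 12.5 CPM in HFD_cont). Without HFD_cont replicates 1 and 2 there were 5. Of 17 heat shock and endoplasmic reticulum (ER) chaperones 9 were higher and none lower (median 0.38; 6 in the RHP libraries). Pdia6, a protein disulfide isomerase of the ER, had 372, 452, 422 and 391 CPM in ND_PMA, against 173, 212, 176 and 143 CPM in HFD_cont (log2 fold change 1.22 ± 0.12 SE, edgeR adjusted p = 4.21e-06). The ER chaperone genes Calr and Hspa5 averaged 293 ± 9.35 CPM in ND_PMA and 145 ± 15.7 CPM in HFD_cont and 919.7 ± 85.4 CPM in ND_PMA and 462 ± 59.6 CPM in HFD_cont. The chaperone count was 5 without HFD_cont replicate 1, 3 or 4. Of 18 ribosome biogenesis genes 8 were higher, among them Wdr12 (56.1 ± 7.4 CPM in ND_PMA and 35.6 ± 3.61 CPM in HFD_cont), with 6 in the RHP libraries and 2 to 5 without HFD_cont replicate 1, 3 or 4 or ND_PMA replicate 3.

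**Figure D4:**
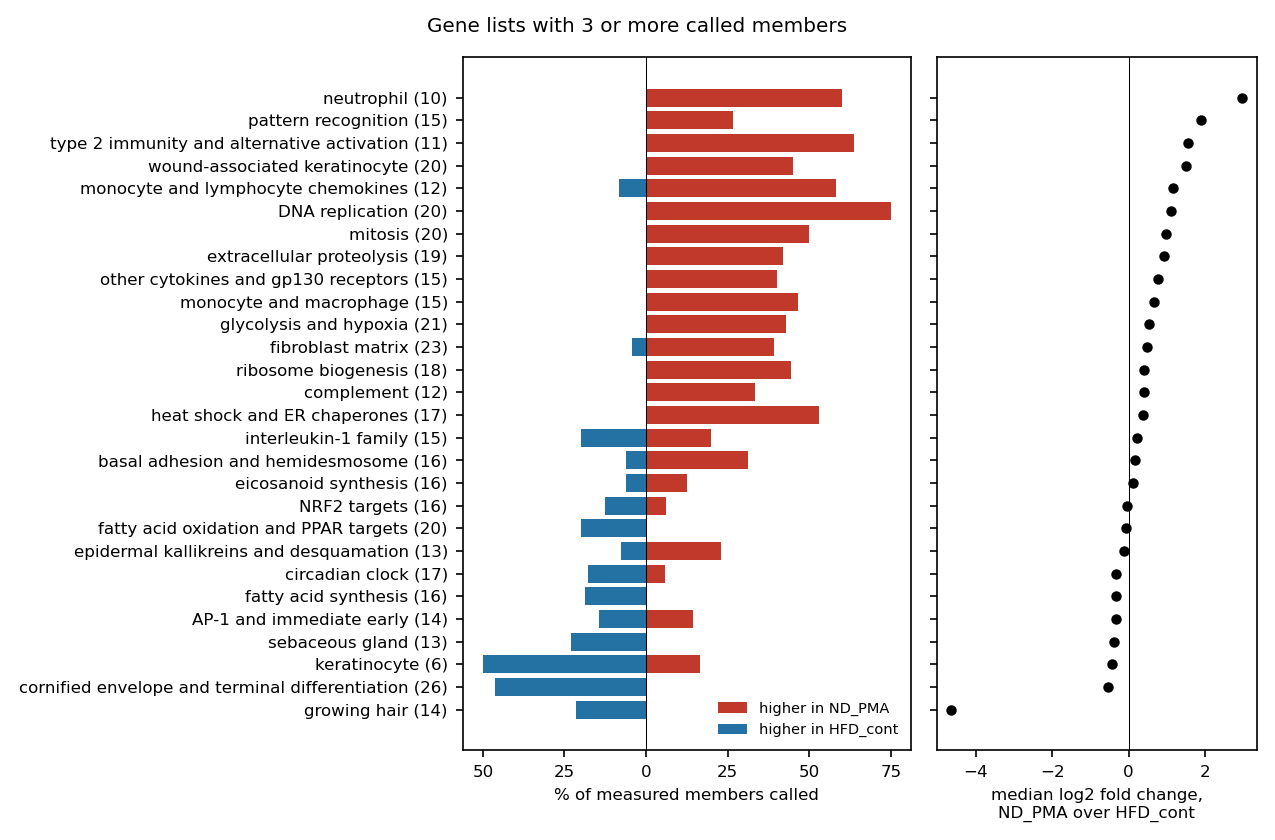
For gene lists with 3 or more called members, bars give the percentage of measured members (number in brackets) called higher in ND_PMA to the right and higher in HFD_cont to the left, and dots the median log2 fold change. Background over all genes was 6.52% higher and 3.25% lower with a median of 0.02, DNA replication reached 15 of 20 and cornified envelope genes 12 of 26 on the other side.

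Lipid and fat genes lay lower after PMA than on the diet where they were called. Adipoq, the adipocyte hormone adiponectin, had 31.3, 35.6, 24.4 and 19.1 CPM in ND_PMA, against 47.6, 76.6, 60.7 and 52.1 CPM in HFD_cont (log2 fold change -1.10 ± 0.22 SE, edgeR adjusted p = 0.00275), and leptin, Lep, had 14.02, 19.8, 5.2 and 8.43 CPM in ND_PMA, against 29.8, 36.6, 26.9 and 40.2 CPM in HFD_cont (log2 fold change -1.48 ± 0.36 SE, edgeR adjusted p = 0.00969). Over ND_cont, the log2 fold change of Adipoq was -1.37 in ND_PMA and -0.27 in HFD_cont, and that of Lep -1.89 in ND_PMA and -0.40 in HFD_cont, with neither gene called in HFD_cont. These were the 2 called of 9 adipocyte genes, whose summed level ran from 434 to 687 CPM in ND_PMA and from 558 to 814 CPM in HFD_cont. Against ND_cont, 7 of the 9 were lower in ND_PMA and 1 in HFD_cont, and none was higher in either. Of 16 fatty acid synthesis genes 3 were lower and none higher (median -0.33), including the desaturases Scd1 (2971 ± 619.9 CPM in ND_PMA and 4629 ± 505 CPM in HFD_cont) and Scd2 (139.6 ± 18.5 CPM in ND_PMA and 248 ± 31.01 CPM in HFD_cont). Against ND_cont, 8 of the 16 were lower in ND_PMA and 2 in HFD_cont, and none was higher in either. Scd1 missed the threshold in the RHP libraries (adjusted p = 0.0504) and without ND_PMA replicate 1 (adjusted p = 0.0533), when the list had 1 call, and it had 5 without ND_PMA replicate 4. Fa2h, a fatty acid hydroxylase, averaged 398 ± 95.9 CPM in ND_PMA and 755 ± 119 CPM in HFD_cont and was 1 of 3 lower genes of 13 in the sebaceous gland list, which also had 1 call without ND_PMA replicate 1.

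Of 20 fatty acid oxidation genes and targets of the lipid sensor PPAR 4 were lower (median -0.07; 4 in the RHP libraries). Ucp2, a mitochondrial carrier, averaged 137 ± 12.4 CPM in ND_PMA and 210.0 ± 31.2 CPM in HFD_cont. Over ND_cont, the log2 fold change of Ucp2 was 0.28 in ND_PMA and 0.90 in HFD_cont, and the diet side alone was called against ND_cont. Acadm, a medium-chain dehydrogenase, differed the same way (log2 fold change -0.55 ± 0.12 SE, edgeR adjusted p = 0.00376), but over ND_cont its log2 fold change was -0.52 in ND_PMA and 0.03 in HFD_cont. Of 22 cholesterol synthesis genes 2 were lower, among them Pmvk (58.4 ± 2.62 CPM in ND_PMA and 121 ± 8.19 CPM in HFD_cont). That count was 1 without HFD_cont replicate 3 or 4 or ND_PMA replicate 1 or 3, and 6 without ND_PMA replicate 4.

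Of 16 detoxification genes that the factor NRF2 controls, 1 was higher and 2 lower (median -0.03; 1 and 2 in the RHP libraries), against 6.52% higher and 3.25% lower over all genes tested. Gsta4, a glutathione transferase for lipid peroxidation products, had 45.9, 45.2, 48.5 and 50.6 CPM in ND_PMA, against 14.8, 7.88, 9.15 and 15.4 CPM in HFD_cont (log2 fold change 2.02 ± 0.24 SE, edgeR adjusted p = 1.69e-05). Aldh3a1, an aldehyde dehydrogenase of epithelia, had 90.3, 87.1, 92.9 and 86.03 CPM in ND_PMA, against 316, 322, 344 and 295 CPM in HFD_cont (log2 fold change -1.84 ± 0.15 SE, edgeR adjusted p = 2.68e-07). Values within each group were close together, and over ND_cont the log2 fold change was -1.50 in ND_PMA and 0.34 in HFD_cont. Gstm1 averaged 98.8 ± 11.5 CPM in ND_PMA and 196 ± 9.46 CPM in HFD_cont. Of 17 circadian clock genes 1 was higher and 3 lower, beside the same shares over all genes. The counts were 0 and 2 in the RHP libraries, and 1 was lower without ND_PMA replicate 3. Per1 was among the lower genes (35.2 ± 9.29 CPM in ND_PMA and 67.7 ± 9.58 CPM in HFD_cont).

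Hair keratin and keratin-associated genes and the hair cuticle gene S100a3 made up 5 of the 15 largest decreases, and their highest values came from HFD_cont replicates 1 and 2. Krt32, a hair keratin, had 1.16, 2.64, 1.01 and 0.206 CPM in ND_PMA, against 42.6, 18.3, 5.96 and 14.1 CPM in HFD_cont (log2 fold change -3.94 ± 0.82 SE, edgeR adjusted p = 0.00477), and was called in every alternative run. Prr9, which encodes a proline-rich protein, had 2.99, 6.05, 6.65 and 5.65 CPM in ND_PMA, against 244, 177, 16.3 and 63.7 CPM in HFD_cont (log2 fold change -4.54 ± 1.24 SE, edgeR adjusted p = 0.0376). Its 2 highest values came from HFD_cont replicates 1 and 2, and it lost its call in the RHP libraries (adjusted p = 0.134), as did S100a3 and Krt26. Lyg2, a lysozyme-like gene, was at 71.8 CPM in HFD_cont replicate 1 and at 0 in 3 ND_PMA libraries, and also lost its call there (adjusted p = 0.117). Of all 14 growing hair genes 3 were lower and none higher, with a median log2 fold change of -4.64, and 1 was called without HFD_cont replicate 1 or ND_PMA replicate 1, 3 or 4 and 5 without ND_PMA replicate 2. In HFD_PMA the same list summed to 3235, 131, 68.3 and 171 CPM in replicates 1 to 4, and in ND_cont to between 18.6 and 62.6 CPM. Without HFD_cont replicates 1 and 2, the counts of genes higher in ND_PMA were 4 for neutrophils, 5 for macrophages, 6 for proteolysis, 6 for matrix, 9 for wound-associated keratinocyte genes, 15 for DNA replication and 9 for mitosis. They were 2 each for other cytokines, pattern recognition, complement and ribosome biogenesis, 5 for chaperones, 1 for the interleukin-1 family and 0 for basal adhesion and AP-1. In the same setting 9 cornified envelope genes and 2 fatty acid oxidation genes were lower. Krt6a, Krt1, Slc2a1, Wdr12, Socs3, Junb, Scd1 and Epgn were among the genes that then missed the threshold. This setting leaves only replicates 3 and 4 of HFD_cont. Of the lists just named, median log2 fold changes were nearer 0 for other cytokines (0.68), ribosome biogenesis (0.40), chaperones (0.37) and basal adhesion (0.08). For AP-1 the median stayed at -0.34. The rest lay further from 0 than with all libraries, among them neutrophils (4.01), wound-associated keratinocyte genes (2.18), complement (0.60) and cornified envelope genes (-0.64). Whether hair growth has a part in the other differences was not tested further.

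**Figure D5:**
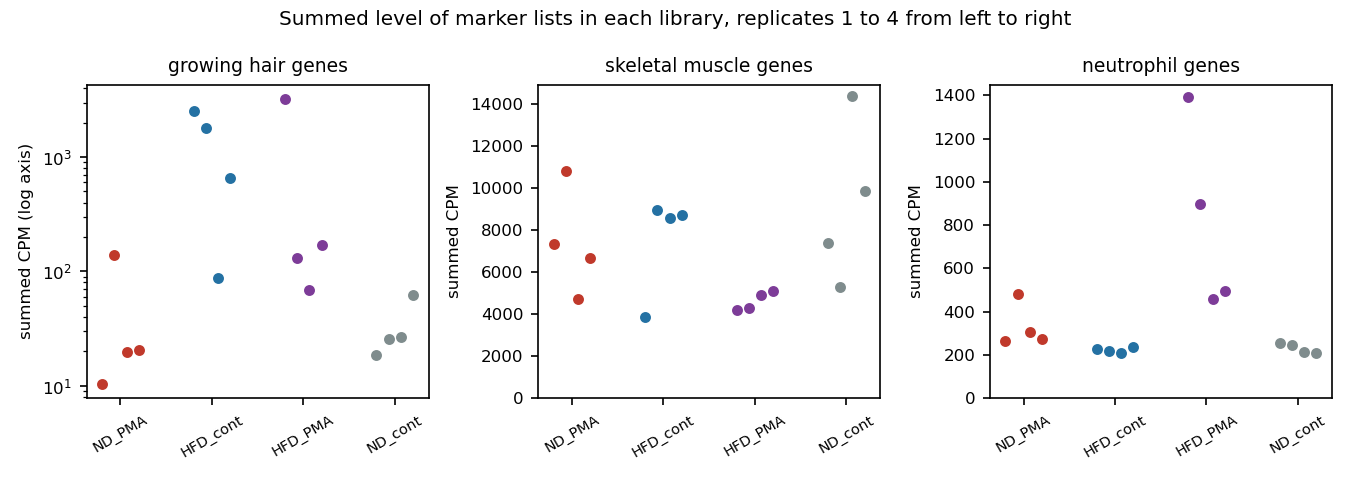
Summed CPM of the growing hair list (log axis), the skeletal muscle list and the neutrophil list (linear axes from 0) in each library, with replicates 1 to 4 from left to right within a group. Hair genes reach 2532 and 1785 CPM in HFD_cont replicates 1 and 2, muscle genes overlap between groups, and neutrophil genes lie above HFD_cont in all ND_PMA libraries.

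The remaining large decreases were not hair genes. Car6, a secreted carbonic anhydrase, had 2.57, 3.09, 2.89 and 4.73 CPM in ND_PMA, against 21.9, 23.4, 15.5 and 17.05 CPM in HFD_cont (log2 fold change -2.56 ± 0.32 SE, edgeR adjusted p = 4.19e-05). Mt4, a metallothionein of stratified epithelia, had 3.4, 6.24, 4.84 and 9.15 CPM in ND_PMA, against 37.2, 17.9, 17.7 and 22.2 CPM in HFD_cont (log2 fold change -2.01 ± 0.40 SE, edgeR adjusted p = 0.0025). Gpm6a, a membrane glycoprotein of neurons, averaged 2.42 ± 1.64 CPM in ND_PMA and 11.3 ± 3.13 CPM in HFD_cont, with log2 fold changes over ND_cont of -2.48 in ND_PMA and -0.27 in HFD_cont. For the kinesin gene Kif26a these were -2.03 in ND_PMA and 0.06 in HFD_cont, and for Tmem35 -2.47 in ND_PMA and -0.16 in HFD_cont.

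The other 8 libraries share none with the comparison above and hold skin with both exposures (HFD_PMA) and with neither (ND_cont). Of the 1147 genes higher in ND_PMA than in HFD_cont, 663 (57.8%) were higher and 46 (4.01%) lower in HFD_PMA than in ND_cont. Of the 573 lower genes, 110 (19.2%) were higher and 176 (30.7%) lower. Over all genes tested these shares were 14.4% and 11.3%. All HFD_PMA libraries are of the RHP series and all ND_cont libraries of the RHS series, so exposure and series cannot be told apart there. With the series as a covariate, which is set by HFD_cont replicate 1 against its group, the 4 counts were 366, 0, 31 and 58. In that run 1239 of the 17604 genes tested were called in either direction, so the shares over all genes above do not apply to it.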

How the data were processed

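The values are raw counts of reads per gene, in 1 table that the authors deposited, and were taken unchanged. Per the labels' protocols, 2 ng of RNA were amplified by SMART-Seq2, which keeps neither strand nor molecular identifiers, made into libraries with Nextera XT and read in pairs of 151 bases. The submitters' processing notes name GRCm38 and mm10 as builds and, as tools, STAR 2.3 and featureCounts 1.5, without settings, strand or annotation release. Since all samples carry 1 treatment text, groups follow the titles and the labels for diet and treatment.

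Genes were kept with filterByExpr (minimum count 10, minimum total 15), which left 17604. TMM scaling was followed by edgeR's robust quasi-likelihood F test (edgeR 4.0.16 under R 4.3.3), with 4 group means fitted to all 16 libraries and no covariate. Calls are genes whose p, adjusted by Benjamini and Hochberg across every gene tested, was below 0.05. SEs were derived from the F statistic as the size of the log2 fold change over its root. TMM-scaled totals also gave the CPM, and 2 prior counts were added before logs. Means are given with SDs (n = 4 each). In 3 simulations the procedure recovered 11% of 1.5-fold, 39.3% of 2-fold and 73.7% of 4-fold changes, and 2.8% of its calls were false. A gene that was not called can therefore still differ. The simulations changed a much smaller share of genes than was called here. They drew libraries independently around a single mean per gene, without differences in growing hair or library ID series. Their shares are thus a rough guide and do not give the share of false calls in these data. At these totals 1 CPM is about 8 to 16 counts in a library. SDs and counts do not separate PCR duplicates from molecules. P-values rest on a spread between libraries estimated over all 16, and not on the SDs printed.

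Members of the comparison, the 48 gene lists and the rule for named genes were chosen with earlier results of these data known, so list counts are descriptions without a set test. Some genes stand in several lists, among them Mrc1, Il33, Mmp9 and Krt15, so counts of different lists are not independent. Named were called genes with mean CPM of at least 5 and groups that did not overlap, the 15 largest in each direction, plus the largest called members of every list, at most 4 each, at the same CPM. Symbols of predicted or clone-derived models and pseudogenes, antigen receptor segments, rDNA and mitochondrial genes were left aside. The text gives a part of these genes. Positions are from GENCODE M21 (GRCm38) and promoter windows from RefSeq (GRCm38.p6), matched by symbol for 11688 genes tested. Exons of 25 of the 97 genes followed overlap those of another gene, in 18 cases solely on the other strand, so without strand their reads are uncertain: Il4ra, Il1a, Stat3, Mmp19, Tnc, Lox, Krt6a, Slpi, Sh2d5, Junb, Bcl3, Top2a, Pkm, Slc2a1, Pdia6, Krt10, Ereg, Scd2, Ucp2, Acer1, Krt32, S100a3 and Wdr12 are among them. Near-identical copies (Sprr2, Lce1, Krt6, Stfa and Scd families) and Flg, whose symbol has several gene IDs, are uncertain too.

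Other settings were RLE or upper-quartile scaling, DESeq2 1.42.0, mitochondrial genes left out, no filter, a filter at 5 CPM in 4 libraries, the groups compared alone, the library ID series as a covariate or RHP libraries alone, the replicate number as a block, and each library left out. HFD_PMA over ND_cont and leaving out the hair-rich libraries were added after the data were seen.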

Additional observations from a re-analysis of the deposited data

Results flagged for a closer look

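In 294 tests of single groups (97 genes and 50 list sums in ND_PMA and HFD_cont) 1 library lay far from the other 3 of its group in 20 cases, where chance flags about 1 in 20 groups. In ND_PMA replicate 2 this held for Csf3r (61.6 CPM), Socs3 (144 CPM), Sh2d5 (31.1 CPM), Junb (440.2 CPM), Krt26 (1.03 CPM), the AP-1 and immediate early list (1219 CPM summed) and the growing hair list (138 CPM summed). In ND_PMA replicate 1 it held for Krt6a (890.1 CPM) and the list of EGF receptor ligands and receptors (600.3 CPM summed), both low, and in ND_PMA replicate 3 for Lyg2 (1.01 CPM). HFD_cont replicate 1 stood high for Slpi (16.6 CPM), Stfa1 (2.84 CPM), Sprr2a3 (6.92 CPM) and the hair follicle stem cell list (1957 CPM summed), and low for Acadm (162 CPM) and the skeletal muscle list (3839 CPM summed). HFD_cont replicate 2 stood high for Ccr2 (16.4 CPM) and Car4 (1.00 CPM). HFD_cont replicate 4 stood low for Clec7a (1.30 CPM) and the endothelial list (48.5 CPM summed).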

How the results depend on the processing

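No called gene among those named changed sign under any alternative run, but medians of lists near 0 did: 5 lists without ND_PMA replicate 2 (among them eicosanoid synthesis at -0.14, against 0.10 with all libraries, NF-kB at -0.11 against 0.08, and cartilage at -0.07 against 0.16), 4 without the hair-rich libraries, 3 without ND_PMA replicate 4 and at most 2 under each other setting. Genes called in ND_PMA over HFD_cont ranged from 1123 to 1488 with single libraries left out, and were 943 without the 2 hair-rich HFD_cont libraries, when 127 list members were called. Leaving out single libraries gave 143 to 189 called list members, 116 to 129 of 144 named genes, and 1763 to 2158 genes called in ND_PMA over ND_cont, 336 to 636 in HFD_cont over ND_cont and 3600 to 4245 in HFD_PMA over ND_cont. With the library ID series as a covariate, which is set by HFD_cont replicate 1 against its group, these 3 comparisons gave 453, 179 and 1239 genes. DESeq2 called 1149 in HFD_cont over ND_cont. With the replicate block, 1683 genes were called in ND_PMA over HFD_cont, and the numbers do not pair the samples, since deviations of same-numbered libraries correlated at -0.0604, 0.0424, 0.0201 and 0.0186. Of 97 genes followed, 90 kept their call in RHP libraries alone, 9 lost it without some single library and 16 under another setting, 15 of them without the hair-rich libraries, among these Krt6a, Slc2a1, Krt1 and Wdr12. The causes were not tested. At these depths genes near 1 CPM rest on few counts.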

Other observations

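Calls of lists not described above in ND_PMA over HFD_cont stand beside 6.52% higher and 3.25% lower over all genes tested. Of 6 keratinocyte markers 1 was higher (Krt14) and 3 lower (Krt1, Krt10 and Krt15), with a median of -0.42. With single libraries left out 0 or 1 keratinocyte marker was higher and 3 were lower, and without HFD_cont replicates 1 and 2 the counts were 0 and 2. Of 16 eicosanoid synthesis genes 2 were higher (Ptges and Tbxas1) and 1 lower (Alox12), with a median log2 fold change of 0.10. Of 17 interferon response genes 2 were higher (Oas1a and Oasl2) and none lower, with a median of 0.60. Icam1 was the 1 called of 8 endothelial activation genes (median 0.36), and Pdgfra the 1 called of 6 fibroblast markers (median 0.35), both higher, and Icam1 was not called without HFD_cont replicate 3 or 4 or ND_PMA replicate 2. Of 19 desmosome and tight junction genes 1 was higher (median -0.03), and of 12 hair follicle stem cell genes 2 were lower, Lgr6 and Krt79 (median -0.11). Of 15 genes of the mitochondrial genome 2 were lower, and their summed level ran from 13559 to 24532 CPM in ND_PMA and from 20670.5 to 29026 CPM in HFD_cont. The count was 4 without HFD_cont replicate 1 or ND_PMA replicate 1. Without HFD_cont replicate 1 or 3 or ND_PMA replicate 2 no interferon gene was called, and without HFD_cont replicate 4 no eicosanoid gene was called higher.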
